A study of Mus musculus with 7 samples.

Results

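The genes described here are 48 genes of fatty acid activation, mitochondrial oxidation, synthesis, desaturation, triglyceride synthesis and lipolysis, taken by gene symbol from a table of 53379 genes. All 48 symbols were found, each under 1 identifier, and 46 passed the filter on low counts. Mgll and Ppara did not pass it. They were read in tumour-associated macrophages of C57BL/6J mice on a high-fat diet that carried tumours of MC38, a colon carcinoma line of the mouse, for 21 days. The cells were selected as positive for CD45, CD11b and F4/80. The 4 wild-type and 3 knockout mice differed by label in Gpr65, which encodes a receptor for extracellular protons, and the diet, the tumour model and the sort were the same in both groups. Whether Gpr65 was deleted in the whole animal or in some cells, and the age of the mice, are not given in the sources used here.

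Each fatty acid that enters a cell is joined to coenzyme A by an acyl-CoA synthetase. Mitochondrial oxidation then needs the carnitine shuttle, whose entry enzyme Cpt1a is inhibited by malonyl-CoA, the product of the first step of fatty acid synthesis. Surplus acyl chains are esterified to triglyceride and kept in lipid droplets coated by perilipins. Macrophages of tumours and of obese tissue are known to store lipid in such droplets, and lipases of the droplet surface and of the lysosome release it again.

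The libraries held 22449772 to 30483733 counts each. Gpr65 measured 65.2 to 112 CPM (counts per megacount of the library, scaled by edgeR's TMM factors) in wild-type and 0.683 to 1.10 CPM in knockout mice, as labelled. The genes of the sort markers were present in every library, with Ptprc (CD45) at 498 to 923 CPM, Itgam (CD11b) at 121 to 293 CPM and Adgre1 (F4/80) at 327 to 1330 CPM. Knockout 1 stood apart, having no count for 940 tested genes where the others had none for 51 to 281, so the counts of genes by direction are also given without it, where noted. Adipocyte markers, which matter for a list of fat genes, summed to at most 0.368 CPM in any library. Of the 7 markers Lep, Cidec and Slc7a10 were at 0 in all libraries and Adipoq reached at most 0.285 CPM. RNA of a bulk sample cannot tell fewer cells of a type from less RNA per cell.

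None of the 46 tested lipid genes passed an adjusted p of 0.05 between knockout and wild-type macrophages. The smallest adjusted p was 0.49, for Gpat3, by edgeR's quasi-likelihood test with Benjamini-Hochberg adjustment over 16234 genes, of which 6 (0.037%) passed. Fold changes were positive for 22 and negative for 24 of the 46 members, with a median log2 fold change of -0.01, and the median over all tested genes was 0. At an unadjusted p under 0.05 there were 6 members, where the share over all tested genes was 5.37%. Acsl1, Lpin2 and Lipa were the 3 with higher and Gpat3, Plin2 and Cpt1a the 3 with lower values in knockout mice, against 2.57% and 2.79% of all genes. The groups did not overlap for 4 members, against 6.12% of all tested genes, namely Gpat3, Cpt1a and Acly below (3.33% of all genes) and Elovl5 above (2.80%). By DESeq2, which called 0.719% of 18208 genes, Gpat3 was the 1 member called (adjusted p = 4.1e-04).

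**Figure D1:**
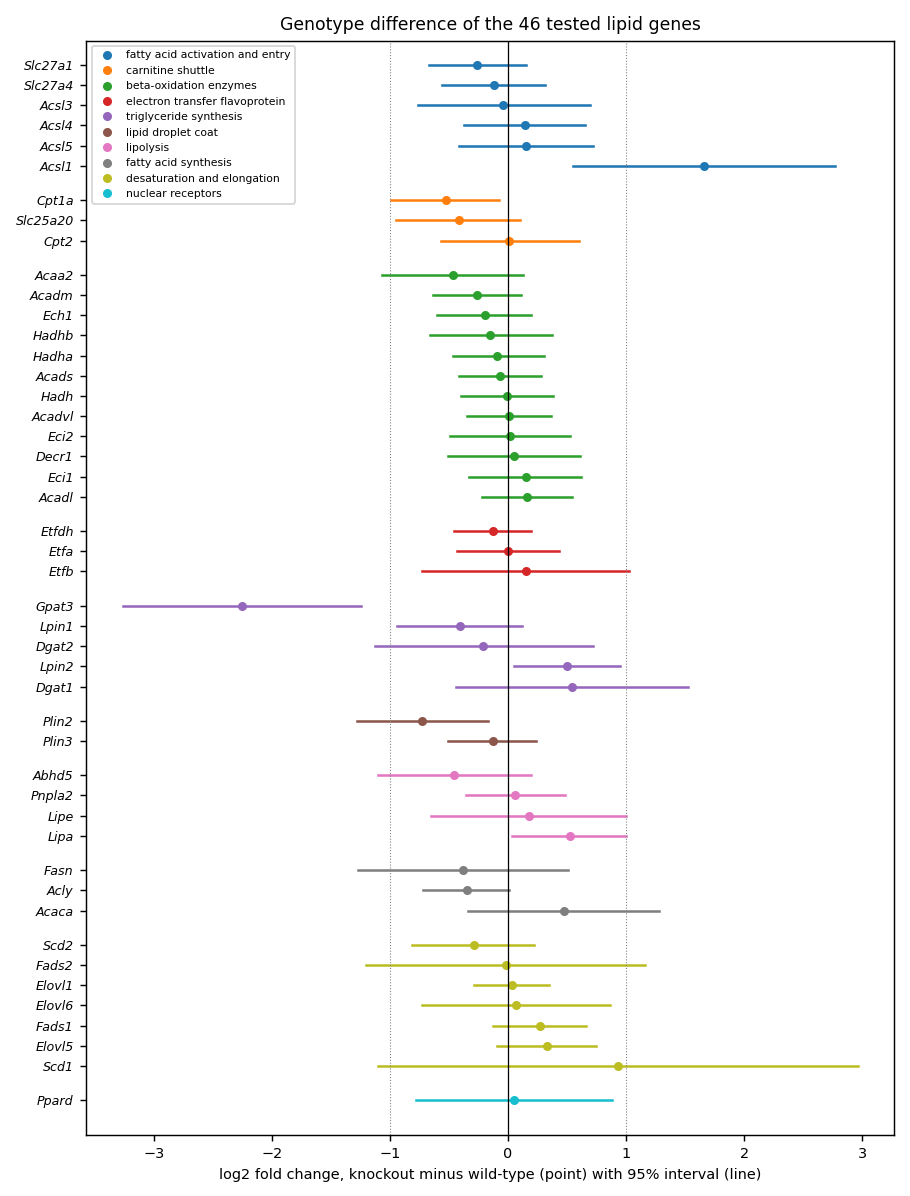
Log2 fold change of each of the 46 tested lipid genes (x axis, knockout minus wild-type) with its 95% interval, grouped by role and coloured by it; dotted lines mark a 2-fold difference. Gpat3 lies at -2.25 and Acsl1 at 1.66, and the enzymes of mitochondrial oxidation lie between -0.53 and 0.16.

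The width of the intervals gives what these 7 mice could show. Width also depends on the count level, for which the sets of genes compared here were not matched. For 32 of the 46 members (69.6%) the 95% interval of the log2 fold change lay within a 2-fold difference in either direction, against 52.1% of all tested genes. Without knockout 1 it was 31 of 47 (66.0%), against 46.9%. Among the 18 genes of the carnitine shuttle, the oxidation enzymes and the electron transfer flavoproteins this held for 16. The exceptions were the thiolase Acaa2, whose interval ran from -1.07 to 0.13, and Etfb, from -0.73 to 1.02. In the other roles it held for 5 of 6 genes of activation and entry, 5 of 7 of desaturation and elongation, and Ppard. It held for 1 of 4 tested lipolysis genes and 1 of 3 of fatty acid synthesis. For triglyceride synthesis it was 2 of 5 and for the droplet coat 1 of 2. For lipolysis, synthesis of fatty acids and of triglyceride, and the droplet coat, 2-fold differences were thus less well bounded.

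Per exon length the perilipin Plin2, which coats lipid droplets, had the highest level of the 48 genes, at 172 ± 27.2 RPKM (CPM divided by the kilobases of exon, SD, n = 4) in wild-type and 104 ± 33.2 RPKM (SD, n = 3) in knockout mice. The elongase of very long chains Elovl1 followed at 64.7 ± 6.01 RPKM in wild-type mice, and the dienoyl-CoA isomerase Ech1 at 56.2 ± 7.09 RPKM. The SDs of Elovl1 and Ech1 overlapped. ATP citrate lyase Acly (43.0 ± 4.27 RPKM), the triglyceride lipase Pnpla2 (34.5 ± 6.92 RPKM) and Acaa2 (33.6 ± 5.58 RPKM) came next, and the SDs overlapped between Acly and Pnpla2 and between Pnpla2 and Acaa2. Reads of Cdc20, on the opposite strand to Elovl1 and sharing exon bases with it, numbered 6918 beside 33505 for Elovl1. At the low end stood the acetyl-CoA carboxylase Acaca at 0.539 ± 0.107 RPKM and the desaturase Scd1 at 0.720 ± 0.335 RPKM. Length here joins the exons of all annotated transcripts, 17074 bases for Acaca, which lowers the level of a gene that uses only some. Of the 50-base words of Acaca 30.4% also occur in transcripts of other genes, so its level is uncertain. This is a share of words, not of reads. The monoglyceride lipase Mgll had 0 to 30 counts per library, and the nuclear receptor Ppara had 1 count in wild-type 1, 1 in knockout 2 and 0 in the other 5 libraries.

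**Figure D2:**
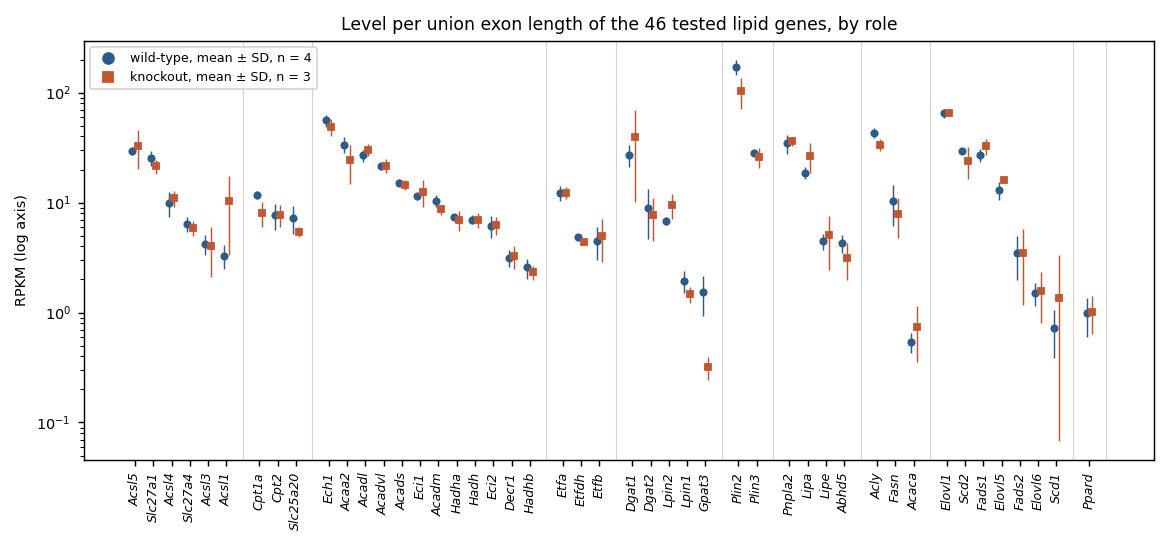
Level per union exon length in RPKM (y axis, log scale) of the 46 tested lipid genes, grouped by role and ordered by wild-type level within a role; circles are wild-type and squares knockout means with SD. Plin2 is the highest in both groups, and Gpat3 is the gene whose 2 means lie farthest apart on this axis.

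Of the 18 genes of mitochondrial oxidation 7 had positive and 11 negative fold changes (8 and 10 without knockout 1), none called in either fit, and Cpt1a had the largest difference. Cpt1a, which makes acylcarnitine at the outer membrane, measured 86.4, 91.1, 80.2 and 98.5 CPM in wild-type mice 1 to 4, against 43.6, 68.5 and 72.7 CPM in knockout mice 1 to 3. Each knockout mouse lay below each wild-type mouse, and knockout 1 was the lowest. Its log2 fold change was -0.53 (95% interval -0.99 to -0.08, SE 0.20, edgeR adjusted p = 0.90). It was -0.35 without knockout 1 (adjusted p = 0.54). The carnitine carrier Slc25a20 had -0.42 (SE 0.23) and Cpt2, which restores the acyl-CoA inside, had 0.01 (SE 0.26). Summed over the 3 shuttle genes the level was 130 to 155 CPM in wild-type and 90.1 to 119 CPM in knockout mice. Cpt1a was the largest of the 3 in every library, and in knockout 1 it made up 43.6 of the 90.1 CPM.

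The 12 enzymes of the oxidation cycle and its side steps had 5 positive and 7 negative fold changes, between -0.47 for Acaa2 and 0.16 for the long-chain dehydrogenase Acadl, and a median of -0.04. Without knockout 1 the balance turned to 7 positive and 5 negative, the median to 0.03, and Acaa2 moved to -0.27. Ech1, the highest by CPM, measured 118, 134, 113 and 148 CPM in wild-type and 93.8, 131 and 109 CPM in knockout mice, and the groups overlapped. The dehydrogenases for short, medium, long and very long chains, Acads, Acadm, Acadl and Acadvl, had log2 fold changes of -0.07, -0.26, 0.16 and 0.01 with SE of 0.16 to 0.17. Hadha and Hadhb encode the 2 subunits of the trifunctional protein and lie head to head on chromosome 5 (30118304 to 30155162, minus strand, and 30155248 to 30184593, plus strand, GRCm38). Hadha held 2.92 to 4.80 times the CPM of Hadhb in the 7 libraries, a ratio between genes of different length that overlapped between the groups. The log2 fold changes of Hadha and Hadhb were -0.09 (SE 0.17) and -0.15 (SE 0.23). Of their 50-base words 0.341% and 19.7% also occur in transcripts of other genes, against 26.9% for Acadvl and 44.8% for Etfb. Dvl2, which overlaps exons of Acadvl on the opposite strand, held 5448 counts beside 10878 for Acadvl. Hadh, the isomerases Eci1 and Eci2 and the reductase Decr1, which prepares unsaturated chains, lay between -0.01 and 0.15. Electrons from the dehydrogenases pass through Etfa and Etfb to Etfdh, which measured 39, 36.3, 32.7 and 36.7 CPM in wild-type and 33.5, 32.8 and 32.5 CPM in knockout mice. The groups overlapped. Its log2 fold change was -0.13 (SE 0.14), against 0.00 for Etfa and 0.15 for Etfb (-0.12 and -0.27 without knockout 1), and a neighbour on the opposite strand that overlaps its exons held 2198 counts beside 6537 for Etfdh.

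The coefficient of variation of CPM over the 4 wild-type mice had a median of 12.7% over the 18 oxidation genes, 16.4% over the 46 members and 24.1% over all tested genes. Among the oxidation genes Etfb (33.1%), Slc25a20 (28%) and Cpt2 (26.3%) exceeded that last value. The other tested pathway genes had a median of 17.6%. These sets were not matched for count level, on which this spread also depends. Plin3, a second perilipin, had the smallest value of all tested genes, at 0.252% (107 to 108 CPM). It measured 87.9, 122 and 84.3 CPM in knockout mice, wider apart than the wild-type values.

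Of the 6 genes for activation and entry, the acyl-CoA synthetase Acsl1 had the largest positive difference among all members. It measured 35.6, 38.5, 42.0 and 22.3 CPM in wild-type mice 1 to 4, against 29.9, 176 and 122 CPM in knockout mice 1 to 3. Knockout 2 and 3 lay above every wild-type mouse, and knockout 1 lay inside the wild-type range. The fitted log2 fold change was 1.66 (95% interval 0.55 to 2.77, SE 0.49, edgeR adjusted p = 0.76). Without knockout 1 it was 2.09 and passed (adjusted p = 0.041), in a fit that called 0.0825% of 16967 genes, and it was 1.14 without knockout 2 (adjusted p = 1). Adgre1, the F4/80 gene used in the sort, was also highest in knockout 2 and 3 (1330 and 802 CPM, against 495 CPM in knockout 1 and 327 to 661 CPM in wild-type mice), and its part in the result was not tested. Acsl5, the highest of the 6 by mean CPM over all mice, measured 149, 150, 152 and 127 CPM in wild-type and 100, 226 and 156 CPM in knockout mice, with a log2 fold change of 0.15 (SE 0.25) that turned to -0.18 without knockout 2. Zdhhc6, which overlaps Acsl5 on the opposite strand, held 9150 counts beside 28263. Acsl3 and Acsl4, which activate long-chain and polyunsaturated acids, and the transport proteins Slc27a1 and Slc27a4 had log2 fold changes between -0.26 and 0.14.

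Acsl1 has RefSeq starts at 2 places, and the 250 bases before the downstream one (GRCm38.p6, 5′ to 3′) are shown because this window alone among those of the members held a sterol response element. The capitals mark that match (GTGGGGTGA, starting 76 bases before the start site) and 2 copies of ATTGG.
Acsl1 (chr8:46490716-46490965, plus strand): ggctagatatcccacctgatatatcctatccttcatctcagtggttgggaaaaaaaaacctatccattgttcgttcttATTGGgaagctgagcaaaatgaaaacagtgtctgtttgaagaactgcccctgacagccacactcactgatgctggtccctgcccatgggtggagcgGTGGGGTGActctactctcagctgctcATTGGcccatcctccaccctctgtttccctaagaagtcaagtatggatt
Promoter windows were found for 41 of the 48 members, 49 windows in all. Acaa2, Decr1, Dgat1, Dgat2, Scd1, Scd2 and Fads1 had no window and were not searched for any motif. The element was searched as TCACNCCAC on both strands and occurred in 1.05% of 32851 windows of the same length. A peroxisome proliferator response element (a direct repeat with a spacer of a single base) and a cAMP response element (TGACGTCA) occurred in 0 of the 49, and in 0.0335% and 1.55% of all windows. The E-box CACGTG was found in 5 of 49 windows (6.02% of all) and ATTGG, the inverted CCAAT box, in 19 of 49 (33.8% of all), with neither motif overlapping the sterol element of Acsl1. A match is a description of letters, not of binding, and the counts per gene do not show which start was used.

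Triglyceride synthesis held the gene nearest to the threshold. Gpat3 (chromosome 5, 100845713 to 100899102, plus strand), a glycerol-3-phosphate acyltransferase of the endoplasmic reticulum that starts triglyceride assembly, had 3.87, 6.44, 3.35 and 7.86 CPM in the wild-type and 1.43, 0.976 and 0.956 CPM in the knockouts. The groups did not overlap, and the 3 knockout mice were close to each other. This rests on 93 to 215 counts per wild-type and 24 to 42 per knockout library. The fitted level in knockout mice was 0.21 times that in wild-type (log2 fold change -2.25, SE 0.44, 95% interval -3.26 to -1.25, edgeR adjusted p = 0.49). Leaving out any 1 library gave -2.49 to -2.03, with edgeR adjusted p from 0.12 (without knockout 1) to 1. A gene model on the same strand that shares exon sequence with Gpat3 held 26 counts over all libraries beside 668 for Gpat3. Of the 50-base words of Gpat3, 29% also occur in transcripts of other genes, so its counts are uncertain. This is a share of words, not of reads, and its effect on the counts was not measured. The promoter window of Gpat3 lies in annotated exons and is not printed. The other acyltransferases of this step, chosen after their values were seen, did not pass. Gpat4 stood at 94.1 ± 3.01 CPM (SD, n = 4) against 110 ± 6.44 CPM in knockout mice (SD, n = 3), the knockout mice all above the wild-type mice, and the mitochondrial Gpam measured 8.77 ± 2.21 and 5.80 ± 1.98 CPM.

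**Figure D3:**
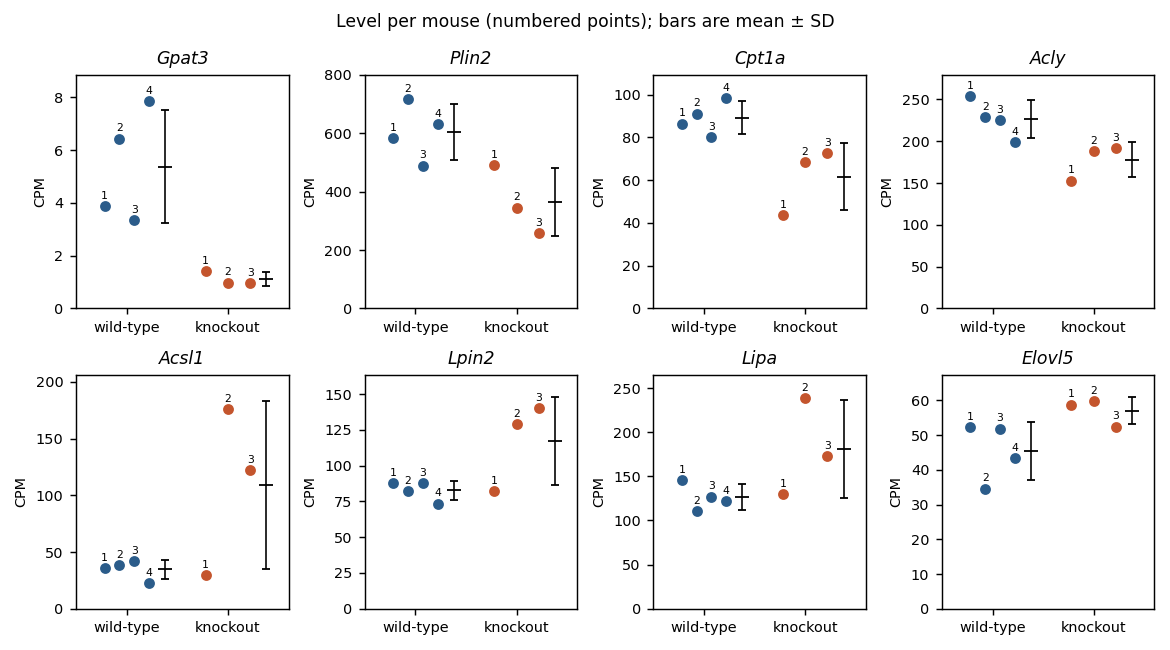
CPM (y axis, from 0) of 8 lipid genes in each mouse; numbered points are mice and bars show mean and SD of the 4 wild-type and 3 knockout mice. Gpat3, Cpt1a, Acly and, narrowly, Elovl5 separate the groups, whereas Acsl1, Lpin2 and Lipa are high in knockout 2 and 3 but not in knockout 1.

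The phosphatidate phosphatases Lpin1 and Lpin2, which make diacylglycerol, differed in sign, with log2 fold changes of -0.41 (SE 0.23) and 0.50 (SE 0.20, edgeR adjusted p = 0.92). Lpin2 measured 87.8, 82.3, 87.6 and 73.4 CPM in wild-type and 82.2, 129 and 140 CPM in knockout mice, so knockout 1 again lay among the wild-type mice. Of the 2 enzymes that add the last acyl chain, Dgat1 measured 55.9, 96.7, 83.6 and 98.0 CPM in wild-type and 55.2, 84.8 and 225 CPM in knockout mice. Knockout 3 alone was high. The log2 fold change of Dgat1 was 0.54 (SE 0.43), and -0.25 without knockout 3. That library also had the highest sum of 11 T and NK cell markers, at 635 CPM against 23.9 to 162 CPM in the others, with all 11 markers tested and none at 0 in all libraries, and their part in the Dgat1 value was not tested. Dgat2 had 15.1 to 43.7 CPM in wild-type and 15 to 35 CPM in knockout mice.

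Plin2, the most abundant member, had a lower mean in knockout macrophages that did not pass the threshold. It measured 582, 718, 489 and 630 CPM in wild-type mice 1 to 4, against 490, 345 and 259 CPM in knockout mice 1 to 3. The groups met at knockout 1 and wild-type 3. Its fitted log2 fold change was -0.73 (95% interval -1.28 to -0.17, SE 0.25, edgeR adjusted p = 0.81). It was -1.02 without knockout 1 (adjusted p = 0.16). Hilpda, an inhibitor of Pnpla2 that is found on droplets, measured 193, 541, 108 and 321 CPM in wild-type and 159, 62.7 and 81.2 CPM in knockout mice (log2 fold change -1.52, SE 0.54, edgeR adjusted p = 0.84). Both genes ran from wild-type 2 through 4 and 1 to 3 among wild-type mice, and both were highest in knockout 1 among knockout mice. Fabp5, a fatty acid binding protein, showed -1.62 on the log2 scale (SE 0.63), and G0s2, another inhibitor of Pnpla2, showed -1.77 (SE 1.19). G0s2 measured 3.16, 34.1, 2.49 and 11 CPM in wild-type and 9.81, 0.570 and 0.735 CPM in knockout mice. The neutrophil marker S100a8 ranked the 7 mice in the same order, at 4.37, 15, 1.46 and 10.6 CPM against 6.49, 0.0407 and 0.404 CPM. S100a8 was picked with its values known, and S100a9, Cxcr2, Ltf and Retnlg gave other orders. Csf3r, the highest neutrophil marker, measured 66, 100, 81 and 53.3 CPM in wild-type and 65.7, 181 and 133 CPM in knockout mice. Retnlg, Ccr7 and Pecam1, markers of neutrophils, dendritic cells and endothelium, were highest in wild-type 2 too (48.6, 170 and 163 CPM). So were Hilpda and Fabp5. These markers were picked with their values known. Of the same lists S100a9, Cxcr2, Flt3, Zbtb46 and Vwf were also highest in wild-type 2. Xcr1, Kdr and Cdh5 were lowest there (4.32, 0.965 and 0.424 CPM), and Siglech was at 0 there. The 11 neutrophil markers together, mostly Csf3r, summed to 81.9 to 195 CPM in wild-type and 84.8 to 182 CPM in knockout mice, 6 passed the filter and Ly6g was at 0 in all libraries. The part of these cells in the droplet genes was not tested. Hilpda was named by the rule as the highest of its list, whereas Fabp5 and G0s2 were picked with their values known. The 8 MC38 and epithelial markers, mostly Cdh1, summed to 126 to 451 CPM in wild-type and 41.9 to 168 CPM in knockout mice, highest in wild-type 2 and 4, the 2 mice with the most Gpat3 and Plin2. In wild-type 2 this was almost wholly Cdh1 (375 CPM): Krt8, Krt19 and Cldn4 were at 0 there, Krt18 was lowest of the wild-type mice (0.540 CPM) and Epcam was below wild-type 3 and 4. None of the 8 was at 0 in all libraries, but Krt8, Krt19, Krt20, Cldn4 and Cldn7 did not pass the filter, and their part in the levels of Plin2 and Gpat3 was not tested.

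Of the lipolysis genes the lysosomal acid lipase Lipa had the largest difference, with 146, 111, 127 and 122 CPM in wild-type and 130, 239 and 173 CPM in knockout mice. On the log2 scale the difference was 0.52 (SE 0.22, edgeR adjusted p = 0.92). It was 0.69 without knockout 1 (adjusted p = 0.22) and 0.26 without knockout 2 (adjusted p = 1). The hormone-sensitive lipase Lipe was likewise highest in knockout 2 and 3, with 22 to 32 CPM in wild-type and 12.1, 38.9 and 38 CPM in knockout mice. Knockout 1 was the lowest of all 7 for Lipe and for Abhd5, the activator of Pnpla2, at 11.1 CPM against 19.9 to 32.7 CPM. Pnpla2 itself differed little (log2 fold change 0.06, 95% interval -0.36 to 0.48).

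Fatty acid synthesis starts from cytosolic acetyl-CoA made by Acly. Acly measured 254, 229, 225 and 199 CPM in wild-type and 153, 188 and 192 CPM in knockout mice, and the groups were separated by a narrow gap. Its log2 fold change was -0.35 (95% interval -0.72 to 0.01, SE 0.16, edgeR adjusted p = 0.93). Fatty acid synthase Fasn measured 134, 53.1, 159 and 103 CPM in wild-type and 115, 48.1 and 96.1 CPM in knockout mice. The groups overlapped, and wild-type 2 and knockout 2 were far below the other mice. Acaca, which makes malonyl-CoA, had 8.40, 6.98, 10.7 and 10.7 CPM in wild-type and 20, 6.96 and 11.2 CPM in knockout mice, with the same 2 mice lowest.

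Of the desaturases and elongases, which act on chains already made or taken up, Scd1, Fads2 and Elovl6 were also lowest in wild-type 2 among wild-type mice, and Fads2 and Elovl6 in knockout 2 among knockout mice. Fads1 ran the other way in knockout mice, with 128, 171 and 169 CPM. Scd1, which places the first double bond, measured 2.87, 1.70, 5.54 and 3.98 CPM in wild-type and 17.7, 1.34 and 1.14 CPM in knockout mice. Knockout 1 was the highest of all 7, and the highest and the lowest library differed 15.5-fold. The log2 fold change of Scd1 was 0.93 (95% interval -1.10 to 2.96), and -1.52 without knockout 1. Fads2, the first enzyme of polyunsaturated acid synthesis, had 14.6, 4.13, 13.5 and 13.9 CPM in wild-type and 20, 5.86 and 8.27 CPM in knockout mice, and Elovl6 had 7.60 to 12.9 CPM and 15.6, 6.14 and 8.49 CPM. Wild-type 2 was the lowest wild-type mouse and knockout 1 the highest knockout mouse for each of Fasn, Acaca, Scd1, Fads2 and Elovl6, a set put together after the values were seen. Srebf1, also picked after its values were seen and whose protein drives such genes, measured 112, 104, 112 and 127 CPM in wild-type and 110, 86.9 and 87.7 CPM in knockout mice, with wild-type 2 and knockout 2 again lowest. Nr1h3, picked likewise, which encodes a liver X receptor, had 44.9 CPM in wild-type 2 against 18.1 to 26.6 CPM in the other wild-type mice, against 15.2, 52.9 and 50.1 CPM in knockout mice.

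**Figure D4:**
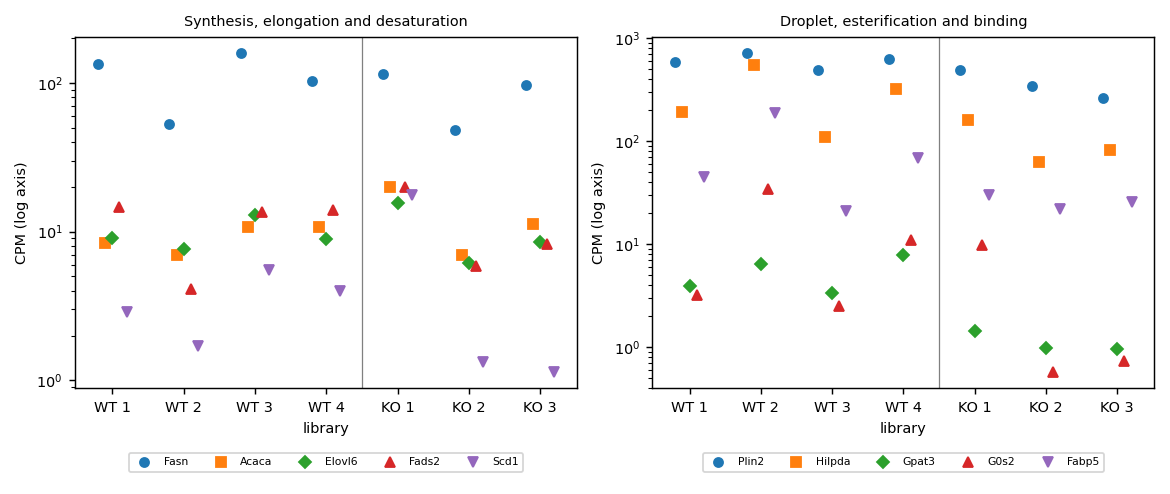
CPM (y axis, log scale) in each of the 7 libraries (x axis) of 5 genes of synthesis, elongation and desaturation at left and 5 genes of droplets, esterification and fatty acid binding at right. Wild-type 2 is low for the genes at left and high for Plin2, Hilpda, G0s2 and Fabp5 at right, and Scd1 reaches 17.7 CPM in knockout 1.

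The windows before the start sites of Fasn, Acly, Plin2 and Cpt1a (GRCm38.p6, 5′ to 3′) are shown because Fasn varied by mouse and all had negative fold changes. That of Fasn was -0.38 on the log2 scale (SE 0.39). The capitals mark matches to ATTGG on either strand, and none of the other 4 motifs was found in these windows.
Fasn (chr11:120824548-120824797, minus strand): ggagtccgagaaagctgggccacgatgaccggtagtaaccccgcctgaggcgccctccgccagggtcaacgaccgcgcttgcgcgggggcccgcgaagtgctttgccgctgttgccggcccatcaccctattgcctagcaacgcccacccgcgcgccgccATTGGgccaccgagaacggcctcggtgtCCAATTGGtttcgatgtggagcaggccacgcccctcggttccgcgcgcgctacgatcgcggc
Acly (chr11:100528001-100528250, minus strand): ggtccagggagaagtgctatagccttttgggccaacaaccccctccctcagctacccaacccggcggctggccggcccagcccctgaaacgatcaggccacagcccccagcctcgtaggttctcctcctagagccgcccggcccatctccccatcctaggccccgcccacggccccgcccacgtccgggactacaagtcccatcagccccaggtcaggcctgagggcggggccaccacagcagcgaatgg
Plin2 (chr4:86670060-86670309, minus strand): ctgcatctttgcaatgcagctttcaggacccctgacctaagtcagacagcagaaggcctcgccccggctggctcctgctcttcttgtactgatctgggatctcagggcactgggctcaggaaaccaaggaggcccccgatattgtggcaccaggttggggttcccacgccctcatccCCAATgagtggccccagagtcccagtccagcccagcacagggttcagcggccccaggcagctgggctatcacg
Cpt1a (chr19:3323051-3323300, plus strand): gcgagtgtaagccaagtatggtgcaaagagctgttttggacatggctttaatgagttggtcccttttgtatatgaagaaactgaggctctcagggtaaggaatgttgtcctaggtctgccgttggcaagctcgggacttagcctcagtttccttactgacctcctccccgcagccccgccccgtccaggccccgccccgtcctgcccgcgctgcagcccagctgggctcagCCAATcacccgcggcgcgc
Fasn has 3 copies, Plin2 and Cpt1a have 1 each and Acly has 0.

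Scd2 exceeded Scd1 in every library, by 28.1 to 89.2 times in CPM in the wild-type and 9.50, 62.6 and 125 times in knockout mice 1 to 3. Per exon length Scd2 measured 29.5 ± 2.07 RPKM (SD, n = 4) and Scd1 0.720 ± 0.335 RPKM in wild-type mice. Of the 50-base words of their transcripts 3.97% and 4.56% also occur in transcripts of other genes. Elovl1 measured 164, 201, 170 and 170 CPM in wild-type and 174, 184 and 182 CPM in knockout mice, and Fads1 116 to 153 CPM and 128 to 171 CPM. Elovl5, which lengthens polyunsaturated chains, had 52.4, 34.6, 51.9 and 43.3 CPM in wild-type and 58.8, 59.9 and 52.5 CPM in knockout mice. The groups only just failed to meet, and the difference on the log2 scale was 0.33 (SE 0.18, edgeR adjusted p = 1).

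Among the nuclear receptors of fatty acids Ppard was the one tested, at 5.28, 6.75, 5.91 and 11.5 CPM in wild-type and 10.9, 5.98 and 5.99 CPM in knockout mice. Its log2 fold change was 0.05 (95% interval -0.78 to 0.88). Wild-type 4 and knockout 1 were high. Pparg, which is outside the 48 genes and was picked after its values were seen, was at 1.02 on the log2 scale (SE 0.34, edgeR adjusted p = 0.81), with 3.22 to 7.33 CPM in wild-type and 8.53 to 13.2 CPM in knockout mice.

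Other genes of the same pathways, 111 in 6 lists, showed no call either. Of 86 tested, 42 had positive and 44 negative fold changes, the median was -0.01, and the smallest edgeR adjusted p was 0.81. Without knockout 1 there were 44 and 42, with none called. Peroxisomal oxidation had 5 positive and 8 negative members (9 and 4 without knockout 1), with the thiolase Acaa1a at 129 ± 13.3 CPM (SD, n = 4) and 117 ± 21.1 CPM (SD, n = 3). Other oxidation genes had 8 positive and 11 negative (13 and 6 without knockout 1), with the proton carrier Ucp2 at 1680 ± 85.9 and 1680 ± 368 CPM. Uptake and binding genes had 3 positive and 7 negative members and a median of -0.36 (4, 6 and -0.47 without knockout 1), with the acyl-CoA binding protein Dbi at 103 ± 27.6 and 72.3 ± 27.3 CPM. Other synthesis and elongation genes had 12 positive and 4 negative members and a median of 0.10, which turned to 5 and 11 and -0.06 without knockout 1, with Hsd17b12, an enzyme of chain elongation, at 111 ± 7.05 and 127 ± 40.4 CPM. Other triglyceride and droplet genes were even, at 6 and 6 (5 and 7 without knockout 1), and the regulators at 8 and 8 in both fits, with the liver X receptor Nr1h2 highest at 143 ± 11.8 and 148 ± 17.5 CPM.

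Knockout 1 was the lowest library for 15 of the 46 (32.6%), against 25.3% of all tested genes, and the highest for 7 (15.2%, against 21.3%). Knockout 1 was thus lowest more often and highest less often among the members than among all genes, a difference that was not tested. Without it 47 members were tested, 20 with positive and 27 with negative fold changes and a median of -0.08, and Acsl1 was the 1 member called. At an unadjusted p under 0.05 there were then 9 (9.80% of all genes), 6 higher (Acsl1, Lpin2, Dgat1, Lipe, Lipa and Fads1; 4.91% of all genes) and 3 lower (Gpat3, Plin2 and Scd1; 4.89%). The groups of that fit did not overlap for 7 members above, namely Acsl1, Acsl5, Lpin2, Lipe, Lipa, Fads1 and Elovl5 (9.54% of all genes). They did not overlap for 7 below, namely Gpat3, Plin2, Cpt1a, Acly, Acsl3, Scd1 and Scd2 (10% of all genes).

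**Figure D5:**
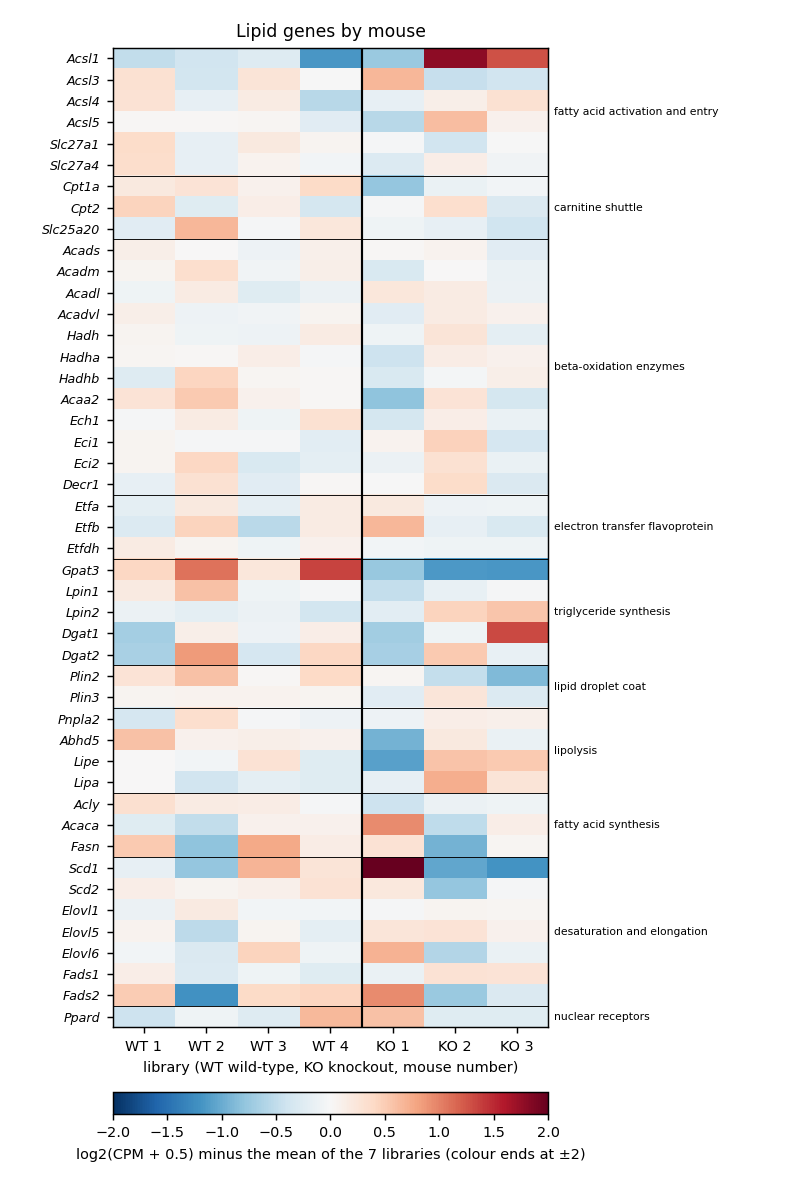
Each of the 46 tested lipid genes (rows, by role) in each library (columns), coloured by log2(CPM + 0.5) minus its mean over the 7 libraries. Most oxidation genes are pale, with Cpt1a, Acaa2 and Etfb in knockout 1 and Slc25a20 in wild-type 2 among the stronger values, Gpat3 is low in the 3 knockout mice, and Acsl1, Lipe and Lipa separate knockout 1 from knockout 2 and 3.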

How the data were processed

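RNA was measured in tumour macrophages of 4 wild-type and 3 Gpr65 knockout mice, grouped by the titles of the labels. PolyA RNA and a Takara SMART-seq library kit are named, per the labels' protocols. The authors deposited raw read counts per gene without normalization. The submitters' processing notes name cutadapt 1.15, FastQC 0.11.5, BWA 0.7.12, DESeq2 1.24.0 and the build GRCm38, with no role or order. The read counter and its use of strand are not given in the sources used here. Overlapping genes could therefore not be told apart. BWA does not split reads at introns, and whether reads were aligned to the genome or to transcripts is not given, so reads over exon junctions may be missing and levels per exon length may be too low for genes with many short exons.

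Counts were fitted with edgeR 4.0.16 (R 4.3.3): TMM scaling, its default filter on low counts (16234 genes), an intercept and genotype, robust quasi-likelihood F test, and Benjamini-Hochberg adjustment over all tested genes at 0.05. SE and 95% intervals were taken from each log2 estimate with its F value. Each p-value sets the genotype difference against the spread between these mice, estimated with information shared across genes. Unnamed rows took 0.000338% of all counts and were not removed before the filter. RPKM divides CPM by the union exon length in GENCODE M21, which joins the exons of all annotated transcripts of a gene. Promoter sequences are RefSeq's (GRCm38.p6).

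The 48 members and the gene lists were chosen with earlier results of these data known, so no p is given for the lists. A member is given in every library where its unadjusted p was under 0.05, its groups did not overlap, or it was the highest of its role by CPM. Pathway genes outside the members are named where they passed, had an unadjusted p under 0.01 or led their list by CPM; others named were chosen after their values were seen. Markers of adipocytes, MC38 and epithelial cells, neutrophils, T and NK cells, B cells, dendritic cells, fibroblasts, endothelial and erythroid cells were summed. Alternatives were other scalings and filters, DESeq2 1.42.0, non-robust edgeR, weighted voom (limma 3.58.1), a replicate block, leaving out 1 library at a time, and an adjusted p of 0.1. The test was tried on simulated counts. Pairs of libraries of 1 group differed far beyond sampling noise, with a chi-square per degree of freedom of at least 27.2.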

Additional observations from a re-analysis of the deposited data

Results flagged for a closer look

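In 56 sets of 4 wild-type values, those of the 46 tested members and of the 10 sums by role, 1 mouse stood far from the other three in 4 sets: its distance from the closest other mouse exceeded Dixon's critical share of the group's range. Chance flags about 1 in 20 sets. Wild-type 1 was highest for Abhd5 (0.921), at 32.7 CPM against 23.0 to 23.8 CPM. Wild-type 4 was lowest for Acsl5 (0.895), at 127 CPM against 149 to 152 CPM. Wild-type 2 was highest for Elovl1 (0.834), at 201 CPM against 164 to 170 CPM, and lowest for Fads2 (0.898), at 4.13 CPM against 13.5 to 14.6 CPM. Groups of 3 were not examined.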

How the results depend on the processing

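Over all tested genes edgeR called 6, and 11 without a filter on low counts, 131 by DESeq2, 1 with the mouse number as a replicate block, and 3 to 14 with 1 library left out. The lowest came without knockout 2 and the highest without knockout 1. Of the members 0 were called, 1 by DESeq2 (Gpat3) and 0 to 1 with 1 library left out (Acsl1, without knockout 1), and none under the other alternatives. At an unadjusted p under 0.05 edgeR had 6 members. Among the other pathway genes 0 were called under every alternative. Members with a negative fold change numbered 24, between 22 and 33 over the other settings and between 23 and 29 with 1 library left out. Library size without scaling factors moved the median over all genes to -0.11 and that over the members to -0.11, and under it Acsl5 (-0.01), Elovl1 (-0.07) and Ppard (-0.01) changed sign. Ppard also did so by limma voom (-0.02). With 1 library left out, Acsl5 ranged from -0.18 to 0.38, Dgat1 from -0.25 to 0.88, Elovl1 from -0.03 to 0.10 and Ppard from -0.32 to 0.34. Gpat3, Plin2, Cpt1a, Acly, Acsl1, Lpin2, Lipa and Elovl5 kept their sign under every alternative. The cause of these shifts was not tested. The labels do not say whether mouse numbers pair the mice. The deviations of same-numbered mice correlated at 0.0656, 0.0509 and 0.0882, and those of other pairs at -0.194 to 0.095. Knockout 1 correlated best with wild-type 4 (0.095), knockout 2 with wild-type 1 (0.0774) and knockout 3 with wild-type 3 (0.0882). With 3 and 4 mice such values cannot decide whether the numbers pair the mice.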

Other observations

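Markers of cells that the sort should remove were read in every library. Neutrophil markers summed to 81.9 to 195 CPM in wild-type and 84.8 to 182 CPM in knockout mice, but the members differed. Csf3r measured 53.3 to 100 CPM in wild-type and 65.7 to 181 CPM in knockout mice (log2 fold change 0.75). S100a8, S100a9 and Cxcr2 had negative fold changes (-1.76, -1.93 and -1.03) with overlapping groups, and Retnlg lay at 0.874 to 48.6 CPM against 0 to 0.551 CPM without overlap. None of these passed (smallest edgeR adjusted p = 0.73, for Retnlg). B cell markers summed to 8.44 to 20.8 and 9.63 to 41.5 CPM, mostly Cd79b, and dendritic cell markers to 31.3 to 208 and 46.9 to 76.6 CPM. Fibroblast markers, led by Col3a1, summed to 120 to 320 and 37.5 to 301 CPM, and endothelial markers, led by Pecam1 in all libraries but wild-type 1, to 34.2 to 173 and 33.8 to 60.1 CPM. Erythroid markers reached at most 1.30 CPM. The parts of these cells in the lipid genes were not tested.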
